A study of Mus musculus with 2 samples.

Results

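The cyclin, cyclin-dependent kinase (CDK) and CDK inhibitor genes of the mouse blastocyst were compared between whole embryos and isolated inner cell masses (ICMs). Members were the rows of the deposited table whose symbol begins with Ccn, a letter and a digit, with Cdk and a digit, or with Cdkn and a digit. The rule took 41 of the 19559 listed genes and used no measured value. It also takes 8 genes whose products bind or are named after a cyclin, CDK or inhibitor without being one, among them Ccnb1ip1 and the Cdk5rap genes, which are described apart. It misses cyclins whose symbol has no digit and CDKs listed under an older symbol, such as Cdk1, listed as Cdc2a, and these are covered in a separate list of regulators.

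Progress through the cell cycle is driven by CDKs, kinases that work only when bound to a cyclin. D-type cyclins with CDK4 or CDK6, and E-type cyclins with CDK2, phosphorylate the retinoblastoma (RB) proteins and release E2F transcription factors for S phase. Cyclin A then acts through S phase and cyclin B with CDK1 brings about mitosis. The Cip/Kip inhibitors bind cyclin-CDK complexes broadly, whereas the INK4 inhibitors bind CDK4 and CDK6. In mouse embryonic stem cells the cycle is short, with brief gap phases. Trophoblast cells of the outer layer later leave mitotic division for rounds of DNA replication without division, in which the Cip/Kip inhibitors take part.

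Both samples were mouse embryos at E3.75, the blastocyst stage, with B6CBAF1 mothers and CD-1 fathers. One library was made from whole blastocysts, which hold the outer trophectoderm and the ICM, and the other from ICMs freed of the outer layer by immunosurgery. ICM cells are thus present in both samples. The sources used here do not give the number of embryos behind a library. Each group had 1 library, so there is no replicate check and no test of any difference below. Fewer cells of a type and less RNA per cell cannot be told apart in such bulk samples.

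Reads on listed genes numbered 9271198 for the whole blastocyst and 4125479 for the ICM. Levels are given as RPKM, the reads of a gene divided by its length and by a library total. Where a pair of values is given for a gene, the whole blastocyst comes first and the ICM second, in RPKM unless reads are named. Ratios of ICM to whole-blastocyst RPKM carry an exact 95% counting interval from the reads, which leaves out amplification and embryo-to-embryo differences. A gene was counted as past 2-fold where log2((ICM RPKM + 1)/(whole-blastocyst RPKM + 1)) was at least 1 or at most -1. Such calls were made where either library reached an RPKM of 1, and these genes are called tested. This scale understates differences of low genes. Most genes were lower in the ICM library, with a median difference of -0.66 over the 3013 genes that reached an RPKM of 5 in each. Values relative to that shift are called centred. All 7 trophectoderm markers were past 2-fold lower in the ICM, with a summed RPKM of 1627 in whole blastocysts and 47.8 in ICMs, and Elf5 had no ICM read. Of the 6 epiblast and ICM markers, 5 were past 2-fold higher, and of the 4 primitive endoderm markers 3 were, which fits the sample labels. Of 5 cumulus and blood cell markers, 2 reached an RPKM of 1, Cd68 (22 and 2 reads) and Cyp19a1 (0 and 91 reads). The part of the lost trophectoderm in any difference below was not tested.

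The share of members lower in the ICM was close to that of all genes. Of 41 members, 29 were tested, and 12 of them (41.4%) were past 2-fold lower, beside 44.0% of all 8981 genes tested. None was past 2-fold higher, beside 8.96% of all genes. The median difference of these 29 was -0.48, and that of all genes tested was -0.84. After centring, 6 members were past 2-fold lower (20.7%, beside 20.5% of all genes) and 5 past 2-fold higher (17.2%, beside 16.9%). These 5 were Ccng2, Cdkn1b and 3 of the 8 genes described apart, Ccnb1ip1, Cdk2ap2 and Cdk5rap1. The share higher thus rests largely on genes that are not cyclins, CDKs or inhibitors. Member genes together took 0.228% of the listed reads in whole blastocysts and 0.224% in ICMs. Their summed RPKM was 351 and 202, a ratio of 0.575, beside 0.514 for the summed RPKM of all listed genes. The other 12 members stayed under an RPKM of 1 in each library, and the counts do not speak for them.

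The near-equal share of listed reads covered differences between close relatives, and most of what follows concerns those. The members past 2-fold lower under each of the 5 scalings between the libraries that were tried (as deposited, centred, TPM, listed reads and quantile normalization) numbered 6 of 29, beside 18.6% of all genes tested. They were Ccnb1, Cdk2, Cdk6, Cdk7, Cdk10 and Cdkn1a. The direction flipped with the scaling in 7 of 29 tested members, Ccna2, Ccnb2, Ccnd1, Ccnd3, Ccnt2, Cdk8 and Cdkn2aipnl, which were lower as deposited and higher under at least 1 other scaling. In contrast Cdk4, Ccnd3, Ccnb2 and Ccnt2 had ratios near 1 as deposited. The plot of levels by gene shows the 38 members with a read.

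**Figure D1:**
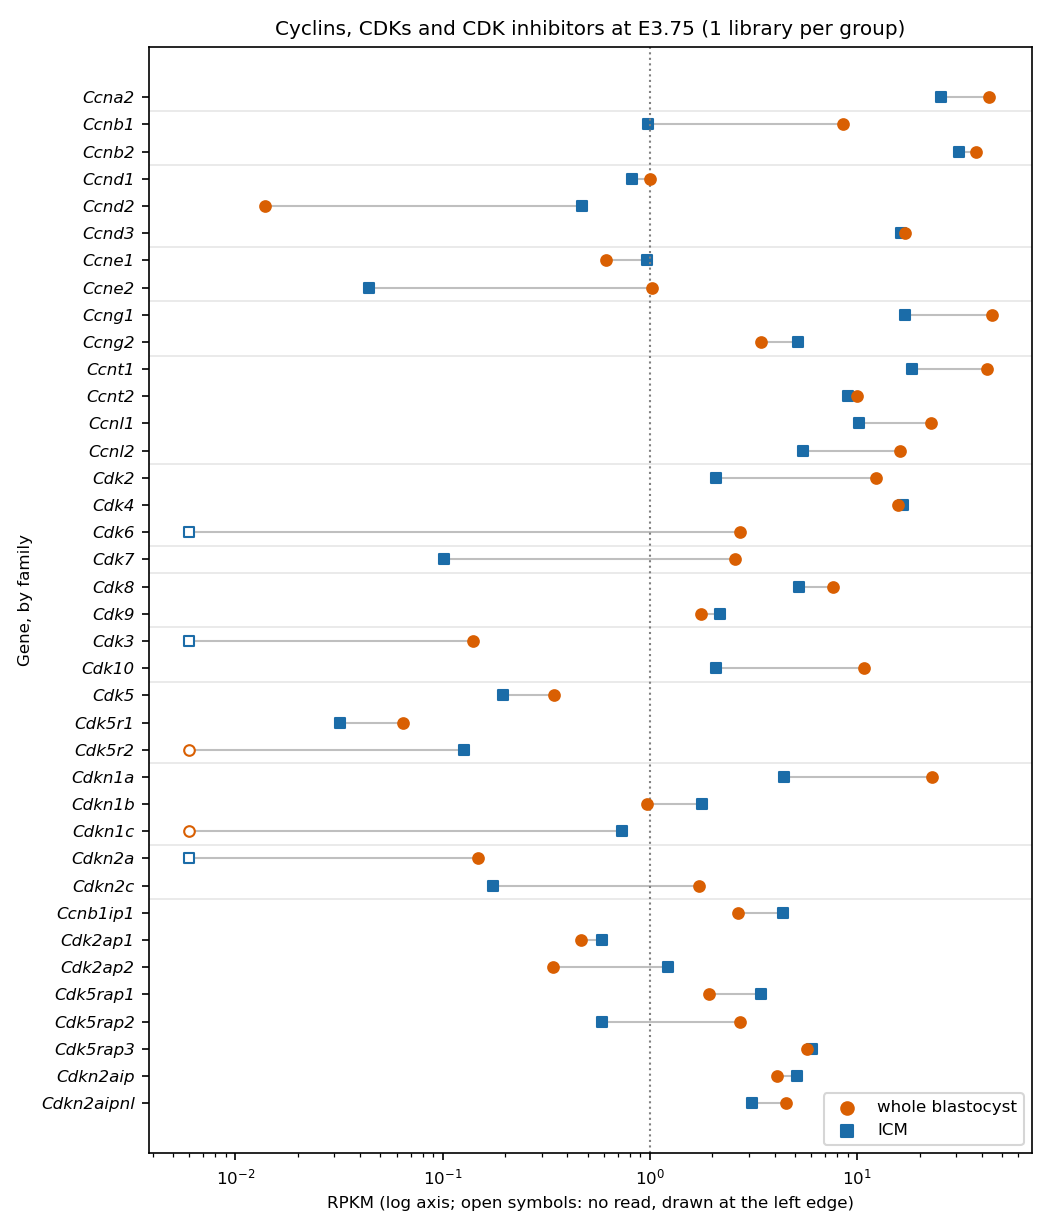
RPKM of each member with at least 1 read (log horizontal axis) in the whole blastocyst (orange circles) and the ICM (blue squares), 1 library each, grouped by family, with the dotted line at an RPKM of 1. Cdk6 lies at 2.71 in the whole blastocyst and has no ICM read, while its relative Cdk4 lies at 15.7 and 16.7.

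Cyclin A and cyclin B genes encode the partners of CDKs in S phase and mitosis. Ccna2, the cyclin A of dividing cells, was among the most abundant members, at 43.4 RPKM in whole blastocysts and 25.5 in ICMs. Its ratio of 0.588 (0.550 to 0.627) lay close to the general shift, at a centred difference of -0.09. The germ-line cyclin genes Ccna1 and Ccnb3 had no read in either library. The B cyclins differed. Ccnb2 stood at 37.3 RPKM in whole blastocysts and 30.9 in ICMs, 1.21-fold lower (1.06 to 1.37), and it had the highest RPKM of the members in the ICM. By reads per kilobase of the longest GENCODE M21 transcript it ranked 3rd there, after Ccna2 and Ccng1. Ccnb1 had 8.54 (402 reads) and 0.983 (39 reads), 8.68-fold lower in the ICM (6.24 to 12.4). Ccnb2 exceeded Ccnb1 4.37-fold in whole blastocysts and 31.5-fold in ICMs. The difference between those ratios, 7.20-fold (5.03 to 10.5), needs no scaling between the libraries. Other genes in the mouse genome match 51.9% of the longest Ccnb1 transcript at 95% identity or more, most of all Gm12856, so its reads are uncertain in both libraries. No such match was found for Ccnb2.

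Mitotic cyclin promoters typically carry CCAAT boxes, bound by the factor NF-Y, and a cell cycle homology region (CHR), bound by the DREAM and B-MYB complexes. The CHR was searched only as TTTGAA. The 250 bases upstream of the RefSeq transcription start (assembly GRCm38.p6) are shown for both B cyclins and for their kinase Cdk1, because the B cyclins differed in their ICM ratios. Capitals mark CCAAT and TTTGAA on either strand, which do not overlap each other here. The windows are chr13:100786487-100786736 for Ccnb1, chr9:70421555-70421804 for Ccnb2 and chr10:69352913-69353162 for Cdk1, all on the minus strand.
Ccnb1: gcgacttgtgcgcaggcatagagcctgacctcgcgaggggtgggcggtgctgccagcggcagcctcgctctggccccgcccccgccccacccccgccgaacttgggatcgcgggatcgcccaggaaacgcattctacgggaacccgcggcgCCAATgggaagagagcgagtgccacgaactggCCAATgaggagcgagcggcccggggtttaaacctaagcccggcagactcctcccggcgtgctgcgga
Ccnb2: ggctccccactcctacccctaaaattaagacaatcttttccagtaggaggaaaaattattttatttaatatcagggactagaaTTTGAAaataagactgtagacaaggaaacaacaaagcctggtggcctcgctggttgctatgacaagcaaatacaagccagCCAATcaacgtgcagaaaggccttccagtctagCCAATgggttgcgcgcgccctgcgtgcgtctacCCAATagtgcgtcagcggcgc
Cdk1: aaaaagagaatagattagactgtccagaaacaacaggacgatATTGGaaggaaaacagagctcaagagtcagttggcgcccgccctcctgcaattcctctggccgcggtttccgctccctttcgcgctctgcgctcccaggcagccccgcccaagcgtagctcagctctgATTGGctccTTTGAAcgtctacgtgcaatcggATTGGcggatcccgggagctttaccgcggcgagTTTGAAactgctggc

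The Ccnb1 window holds 2 CCAAT boxes and the Ccnb2 window 3, each set within the 100 bases nearest the start. The Cdk1 window holds 3. TTTGAA stands once in the Ccnb2 window, with its first base at position -167 from the start, upstream of all 3 CCAAT boxes. It stands at -71 and -15 in the Cdk1 window and nowhere in the Ccnb1 window. Other forms of the CHR and bases downstream of the start were not searched, so Ccnb1 cannot be said to lack a CHR. Of all 32851 RefSeq windows of this length, 33.8% hold CCAAT and 16.0% hold TTTGAA. Of the 41 members, 33 matched a window by symbol. In their 38 windows CCAAT stands in 44.7% and TTTGAA in 7.89%. The matches to CCAAT and TTTGAA describe the sequence only, and their part in the ICM ratios was not tested.

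D-type cyclins, which link growth signals to CDK4 and CDK6, were represented almost wholly by Ccnd3. Its RPKM was 17.1 in whole blastocysts and 16.3 in ICMs, with a ratio of 0.953 (0.859 to 1.06). Ccnd3 made up 94.4% of the summed D-cyclin RPKM in whole blastocysts and 92.7% in ICMs. Genes such as Ccnd3-ps match 58.3% of a Ccnd3 transcript, so part of its reads is uncertain. Shares of 29.5% for Ccnd1, 45.9% for Cdk8, 33.7% for Cdk10, 31.3% for Cdkn1c and 98.3% for Cdk2ap1 make their reads uncertain too. Ccnd1, with 128 and 88 reads, had an RPKM of 1.00 and 0.817 (ratio 0.816, 0.615 to 1.08). Ccnd2 stayed under an RPKM of 1 in both libraries. It had 3 reads in whole blastocysts (RPKM 0.0139) and 85 in ICMs (0.469), a ratio of 33.6 (11.1 to 166). That was the highest ratio among members with reads in both libraries. Against Ccnd3 it was 35.3-fold more prominent in the ICM (11.6 to 175), though its RPKM there was still 34.7-fold below that of Ccnd3.

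E-type cyclins, the partners of CDK2 at entry into S phase, were low. Ccne1 had 18 reads in whole blastocysts and 24 in ICMs (RPKM 0.612 and 0.969, ratio 1.58, 0.824 to 3.10). Ccne2 had 83 and 3 reads (RPKM 1.03 and 0.0441), 23.3-fold lower in the ICM (7.70 to 115). Ints8 transcripts match 20.4% of the longest Ccne2 transcript, so part of the Ccne2 reads is uncertain. Because both its values are near 1 or below, Ccne2 counts as within 2-fold on the RPKM + 1 scale, at -0.96. Ccne2 was the higher of the pair in whole blastocysts and Ccne1 in ICMs. The ratio of Ccne1 to Ccne2 was 0.596 in whole blastocysts and 22.0 in ICMs, a 36.9-fold difference (9.35 to 203) that rests on those 3 ICM reads.

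Cyclin G genes encode atypical cyclins, and Ccng1 is a classical target of p53. Ccng1 had the highest RPKM of all members in the whole blastocyst, 44.7 (5041 reads). Its ICM value of 17.0 (1620 reads) was 2.62-fold lower (2.48 to 2.77). Relative to the shift it was within 2-fold (-0.68). Ccng2 lay on the other side, with an RPKM of 3.45 and 5.19 and a centred difference of 1.13. The ratio of Ccng2 to Ccng1 was 0.0773 in whole blastocysts and 0.304 in ICMs, 3.94-fold apart (3.25 to 4.78).

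Cyclins T and L act in RNA synthesis and splicing rather than in the cell cycle. Cyclin T with CDK9 forms the elongation factor P-TEFb. All 4 had at least 248 reads in each library. Ccnt1 had an RPKM of 42.3 and 18.3 (2.31-fold lower in the ICM, 2.14 to 2.48), Ccnl1 22.6 and 10.2 (2.23-fold, 1.95 to 2.55) and Ccnl2 16.0 and 5.45 (2.94-fold, 2.55 to 3.40). Ccnt2 had 10.00 and 9.01, a ratio of 0.901 (0.826 to 0.983). After centring none of the 4 was past 2-fold. Within the pair, the ratio of Ccnt2 to Ccnt1 was 2.08 times as high in ICMs (1.85 to 2.33).

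The kinases of the early cell cycle differed among themselves. Cdk4 lay at 15.7 RPKM (250 reads) and 16.7 (224 reads), whole blastocyst first, with a ratio of 1.06 (0.884 to 1.28). Its relative Cdk6, with an RPKM of 2.71 in whole blastocysts (193 reads), had no ICM read. By the exact 95% limit Cdk6 was at least 43.7-fold lower there, and at least 54.2-fold at a floor of 3 ICM reads. Cdk2, which works with cyclins E and A, had 12.4 (707 reads) and 2.07 (100 reads), 5.96-fold lower in the ICM (4.82 to 7.42). By RPKM Cdk4 exceeded Cdk2 1.27-fold in whole blastocysts and 8.07-fold in ICMs. Those ratios differed 6.33-fold (4.76 to 8.44), whatever the gene lengths. The order within the whole blastocyst turned with the length. By reads per kilobase of the longest GENCODE M21 transcript, scaled to listed reads, Cdk4 had 13.1 and Cdk2 23.4 there, and 26.4 and 7.43 in the ICM. Cdk4 made up 51.1% of the summed RPKM of Cdk2, Cdk4 and Cdk6 in whole blastocysts and 89.0% in ICMs. Tspan31 transcripts match 31.2% of the longest Cdk4 transcript, and without a stated use of strand reads of the shared part cannot be assigned.

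The upstream windows of Cdk2 and Cdk4 are shown because these kinases diverged between the libraries. Capitals mark the E2F motif, searched as TTTCCCGC or TTTGGCGC, and the Sp1 motif GGGCGG, on either strand. The windows are chr10:128705052-128705301 on the minus strand for Cdk2 and chr10:127063285-127063534 on the plus strand for Cdk4 (GRCm38.p6).
Cdk2: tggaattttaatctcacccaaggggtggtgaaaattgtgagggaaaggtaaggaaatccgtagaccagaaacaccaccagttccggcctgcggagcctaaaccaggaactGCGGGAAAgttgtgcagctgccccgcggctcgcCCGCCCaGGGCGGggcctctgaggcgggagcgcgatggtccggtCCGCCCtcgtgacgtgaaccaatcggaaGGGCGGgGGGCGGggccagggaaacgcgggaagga
Cdk4: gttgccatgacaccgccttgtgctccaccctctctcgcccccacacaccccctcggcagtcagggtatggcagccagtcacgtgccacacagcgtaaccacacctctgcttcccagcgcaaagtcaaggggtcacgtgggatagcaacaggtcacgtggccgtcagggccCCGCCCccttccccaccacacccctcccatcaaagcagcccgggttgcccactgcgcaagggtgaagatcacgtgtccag

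The Cdk2 window holds 1 match to the E2F letters and 5 to GGGCGG, and the Cdk4 window 1 to GGGCGG and none to the E2F letters searched. GGGCGG stands in 32.7% of all windows and 71.1% of the members' windows. The E2F letters stand in 427 of all windows and in 2 of the 38 windows of members. These matches describe the sequence only.

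**Figure D2:**
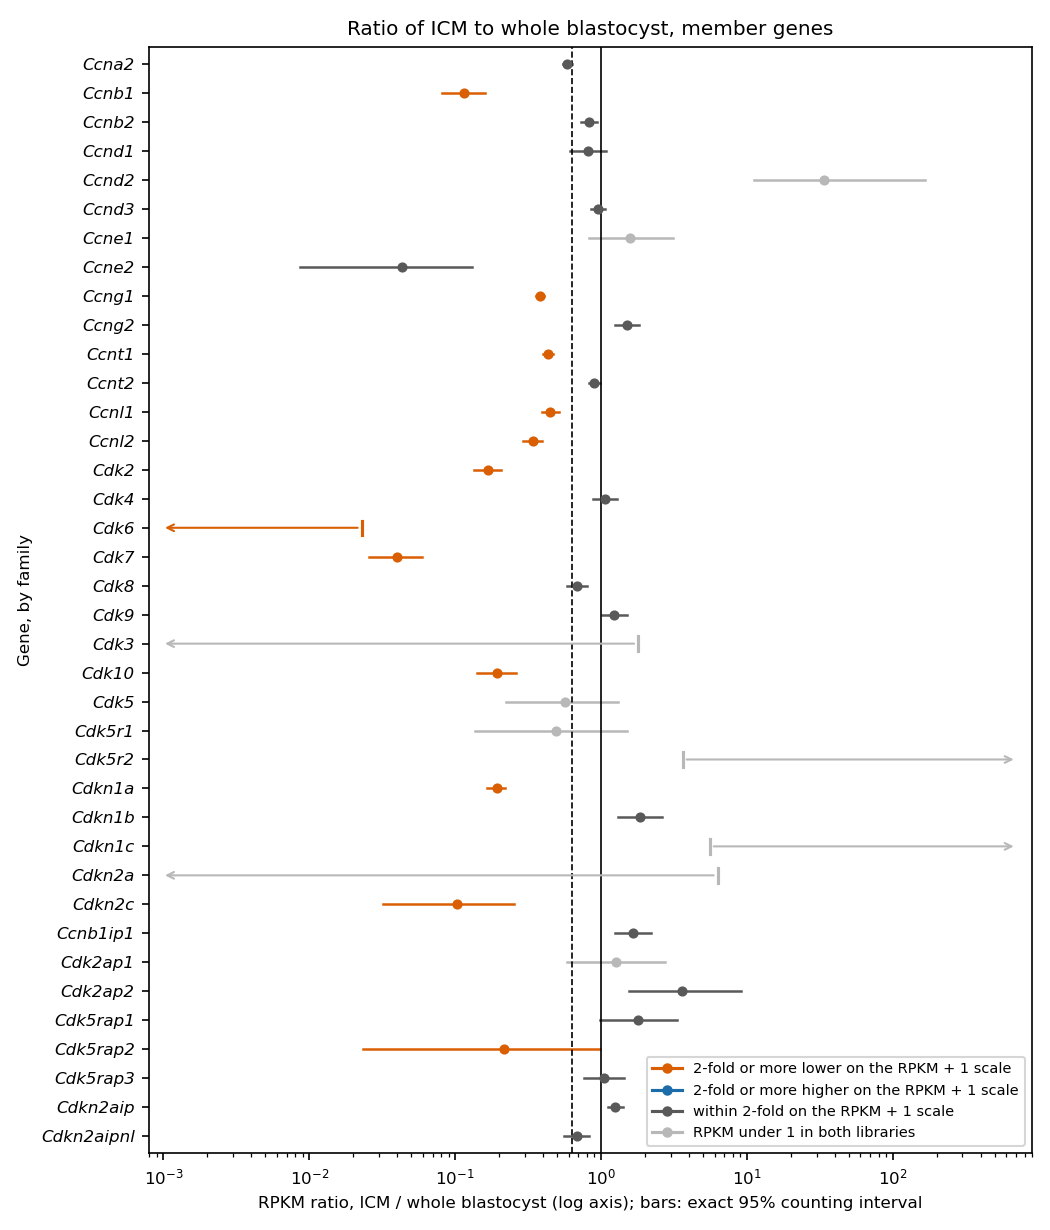
Ratio of ICM to whole-blastocyst RPKM per member (log horizontal axis) with exact 95% counting intervals. Arrows start at the exact limit of genes without a read in 1 library, the solid line marks equal RPKM and the dashed line the median shift. Genes left of the dashed line include Ccnb1, Cdk2, Cdk10, Cdk7, Cdkn1a and Cdk6, and also others such as Ccne2 and Cdkn2c. Ccnd2, at 33.6, lies farthest right among genes read in both libraries.

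Cdk7 encodes the catalytic subunit of the CDK-activating kinase, which also phosphorylates RNA polymerase II as part of TFIIH. It had 747 reads in whole blastocysts and 25 in ICMs, 25.2-fold lower (16.9 to 39.2). Its partners in that kinase, Ccnh and Mnat1, had 88 and 71 reads and 146 and 52 reads, with ratios of 0.958 (0.691 to 1.32) and 0.423 (0.302 to 0.584). The level of Cdk7 beside other genes depends on the length it is divided by, and its RPKM was 2.56 and 0.102. The length the authors used for it, read from reads per RPKM and set against the longest GENCODE M21 transcript, was 8.08 times that of the median gene. By reads per kilobase of that transcript Cdk7 ranked 4th among members in the whole blastocyst, compared with 22nd by RPKM. Over which gene model its reads were counted was not tested. The ratio between libraries does not depend on the length.

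Kinases of transcription differed less. Cdk8, the kinase of the Mediator complex, had 7.69 and 5.24 (ratio 0.682, 0.583 to 0.797), and Cdk9 had 1.77 and 2.19 (1.23, 1.01 to 1.51). Cdk10, the partner of cyclin M, had 10.7 (300 reads) and 2.08 (49 reads), 5.16-fold lower in the ICM (3.80 to 7.13). Cdk5, the kinase known from neurons, had 19 and 9 reads, and its activator genes Cdk5r1 (12 and 5 reads) and Cdk5r2 (0 and 13 reads) were as sparse. Cdk3 had 4 and 0 reads. None of these 4 reached an RPKM of 1.

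The Cip/Kip inhibitors differed in direction. Cdkn1a, which encodes p21 and is a main p53 target, had 23.0 in whole blastocysts (1427 reads) and 4.42 in ICMs (231 reads), 5.20-fold lower (4.53 to 6.01). Cdkn1b, which encodes p27, had 0.970 (56 reads) and 1.79 (87 reads), a ratio of 1.84 (1.30 to 2.63) and a centred difference of 1.16. Cdkn1c, the imprinted gene of p57, had no read in whole blastocysts and 19 in ICMs (RPKM 0.736), at least 5.54-fold higher by the exact limit and 7.52-fold at a floor of 3 reads. Cdkn1a was 23.7-fold above Cdkn1b in whole blastocysts and 2.47-fold above it in ICMs. Those ratios differed 9.60-fold (6.57 to 14.1). Cdkn1a made up 96.0% and 63.6% of the summed Cip/Kip RPKM.

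INK4 inhibitors were low, and 2 of them were almost silent. Cdkn2b had no read in either library and Cdkn2a had 2 reads in the whole blastocyst only. Cdkn2c, which encodes p18, had 58 reads in whole blastocysts and 5 in ICMs (RPKM 1.72 and 0.176), 9.77-fold lower (3.96 to 31.2). The listed genes did not include Cdkn2d under that symbol, so the family is covered by 3 genes only.

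**Figure D3:**
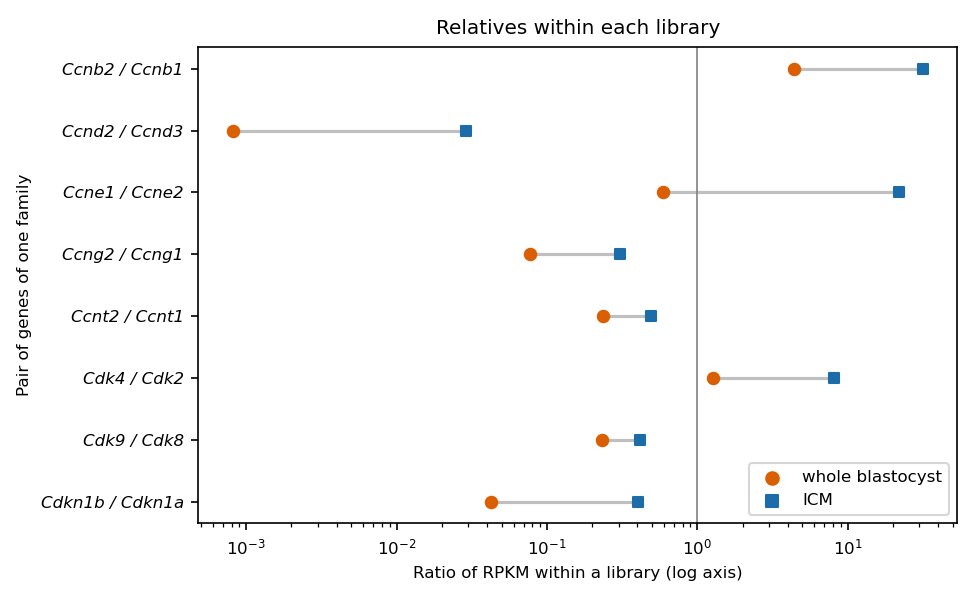
Ratio of RPKM between 2 genes of a family within each library (log horizontal axis), for the whole blastocyst (orange circles) and the ICM (blue squares), 1 library each. All 8 ratios drawn are higher in the ICM, from 1.81-fold for Cdk9 over Cdk8 to 36.9-fold for Ccne1 over Ccne2, in the order each pair is written.

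Ratios within a library were computed for 23 pairs of family members with more than 3 reads in a library. The same was not done for pairs of other genes, so nothing particular to these families follows. The 8 pairs drawn were chosen after their values were seen, each written with the relatively more ICM-rich gene first. The interval of the difference between libraries contained 1 for Ccnd3 over Ccnd1, at 1.17 (0.866 to 1.58), and for Ccnt1 over Ccnl1, at 0.967 (0.830 to 1.13). It also contained 1 for the sparse pairs Cdk5r1 over Cdk5, at 0.880 (0.185 to 3.84), and Cdk3 over Cdk10 (0 to 9.51). All other intervals left 1 out. Levels of members in the 2 libraries were ranked alike, with a Spearman correlation of 0.78 over the 29 genes, compared with 0.67 over all genes tested. Genes are not independent replicates.

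Of the 8 associated proteins 7 were tested (Cdk2ap1, with 15 and 16 reads, was not), and 5 had a higher RPKM in the ICM. Ccnb1ip1, a ubiquitin ligase of meiotic crossovers, had 2.65 and 4.39 (ratio 1.66, 1.26 to 2.19), and Cdkn2aip, which binds the ARF protein, had 4.10 and 5.14 (1.25, 1.11 to 1.41). Cdkn2aipnl had 4.55 and 3.10 (0.682, 0.561 to 0.827) and Cdk5rap3 5.75 and 6.04 (1.05, 0.763 to 1.44). The 3 other tested genes had at most 30 reads in either library. Cdk2ap2 had 8 and 24 reads (3.56, 1.55 to 9.17), Cdk5rap1 20 and 30 (1.78, 0.978 to 3.31) and Cdk5rap2, a centrosome protein gene, 11 and 2 (4.63-fold lower, 1.01 to 43.0). Cdk5rap2 reached an RPKM of 2.72 on 11 reads because the length used for it relative to GENCODE was 0.0188 times that of the median gene. Without these 8 genes, 11 of the 22 remaining tested members were past 2-fold lower and their median was -1.02, beside 44.0% and -0.84 for all genes.

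Regulators of these complexes came from a list of 53 genes, of which 52 were in the table. Of 45 tested, 17 were past 2-fold lower (37.8%) and 1 past 2-fold higher (2.22%), beside 44.0% and 8.96% of all genes. Their median was -0.81. Centred, 9 were lower (20.0%) and 3 higher (6.67%), beside 20.5% and 16.9%. The direction flipped with the scaling in 18 of them.

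**Figure D4:**
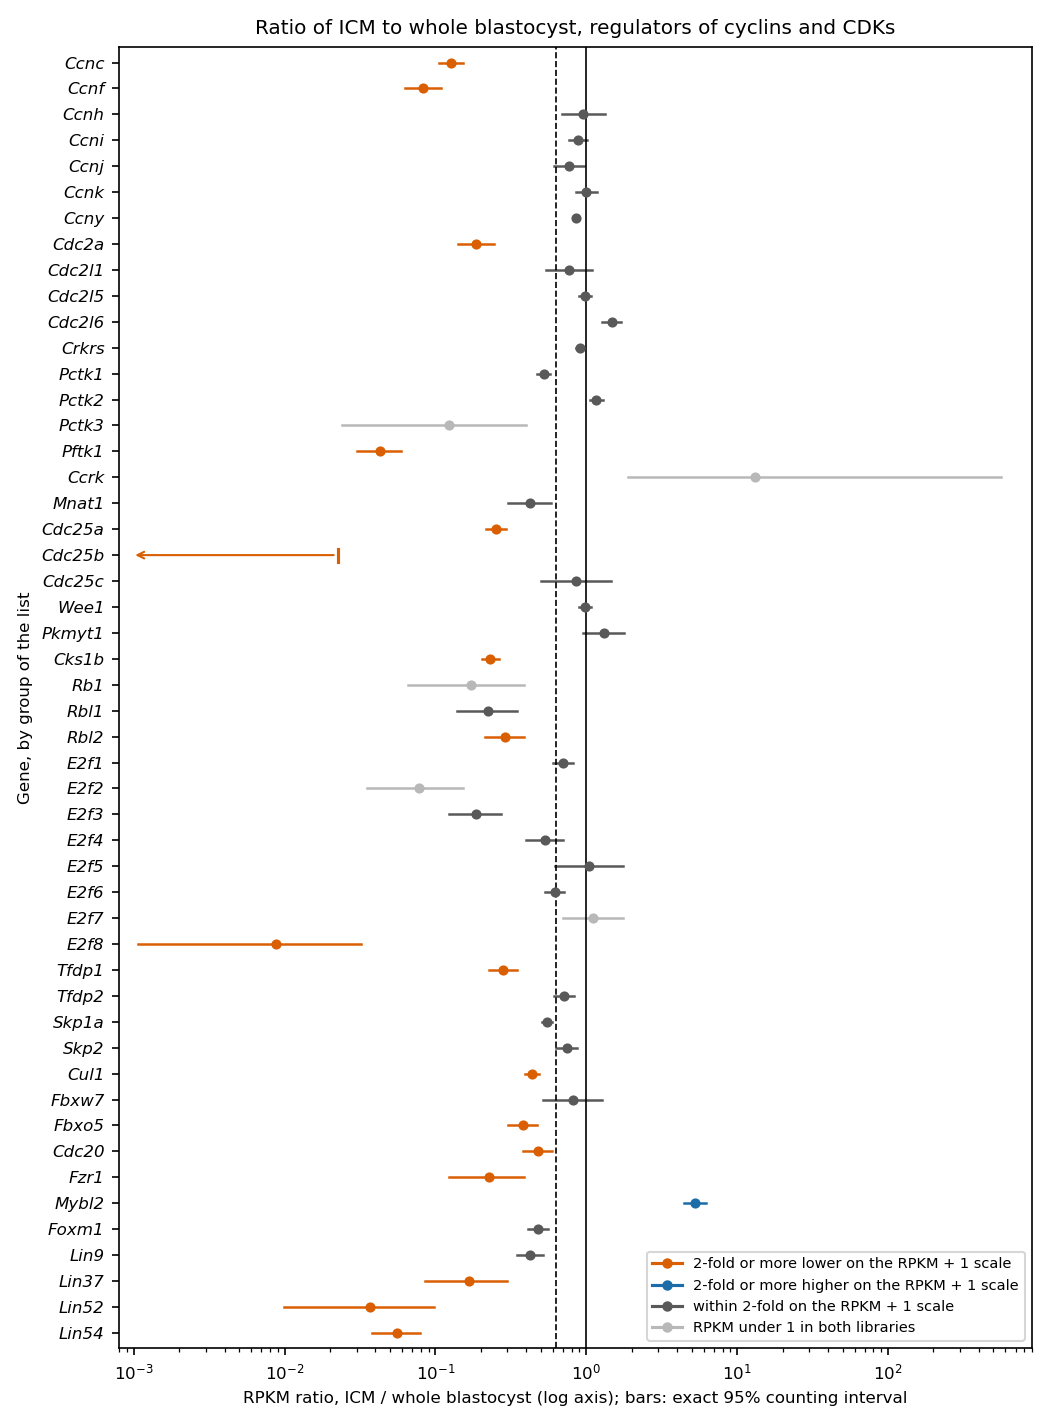
Ratio of ICM to whole-blastocyst RPKM (log horizontal axis) with exact 95% counting intervals for the regulators with more than 3 reads in all, in the order of the list. The solid line marks equal RPKM and the dashed line the median shift. Mybl2, at 5.28, is the one tested gene past 2-fold higher, and E2f8 and Cdc25b lie farthest left. Ccrk (current symbol Cdk20), under an RPKM of 1 in both libraries, lies farther right than Mybl2, at 13.1 on 1 and 11 reads.

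CDKs listed under older symbols included Cdk1, the mitotic kinase, as Cdc2a. It had 413 reads (RPKM 4.68) and 65 reads (0.874), 5.35-fold lower in the ICM (4.11 to 7.06), on the same side as its partner Ccnb1. Its centred difference was -0.94. Pftk1 (current symbol Cdk14), a kinase of Wnt signalling, had 1083 and 39 reads, 23.4-fold lower (17.0 to 33.1). The transcription kinase gene Crkrs (Cdk12) had 14.6 and 13.2, and Cdc2l5 (Cdk13) 7.43 and 7.31. Cdc2l6 (Cdk19), the relative of Cdk8, had 3.27 and 4.82, a ratio of 1.47 (1.28 to 1.69).

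Among cyclins without a digit in the symbol, 2 of 7 tested (28.6%) were past 2-fold lower as deposited, beside 44.0% of all genes. The same 2 were past 2-fold lower after centring, beside 20.5% of all genes. Ccnf, the F-box cyclin that takes part in protein degradation, had 16.2 and 1.35 (ratio 0.0833, 0.0625 to 0.109). Ccnc, the partner of Cdk8 and Cdk19, had 12.04 and 1.53 (7.86-fold, 6.60 to 9.42). Ccny was the most abundant of all regulators in the ICM, at 38.6, and had 45.0 in the whole blastocyst.

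Of the genes that switch CDKs on or off, the CDC25 phosphatases, which activate CDKs, were split. Cdc25a had 923 and 196 reads, 3.97-fold lower in the ICM (3.40 to 4.65). Cdc25b had 196 reads and none, at least 44.3-fold lower by the exact limit and 55.0-fold at a floor of 3 reads. Cdc25c had 36 and 26 reads. The opposing kinase genes were level as deposited. Wee1 had 18.6 and 18.2 (ratio 0.978, 0.896 to 1.07) and Pkmyt1 7.79 and 10.1 (82 and 90 reads). Cks1b, a CDK subunit that aids destruction of p27, was the highest regulator of the whole blastocyst at 69.6, and had 16.1 in the ICM (4.32-fold lower, 3.82 to 4.91). Its relative Cks2 had 1 read and none. Copies such as Gm12891 match 34.7% of the Cks2 transcript.

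Of 10 tested RB and E2F genes, 3 were past 2-fold lower as deposited, beside 44.0% of all genes, and 1 after centring, beside 20.5%. These counts use the RPKM + 1 scale, which understates low genes. By RPKM ratio relative to the shift, E2f3 was 3.43-fold, Rbl1 2.83-fold, Tfdp1 2.26-fold and Rbl2 2.20-fold lower. On that measure E2f1, E2f4, E2f5, E2f6 and Tfdp2 were within 2-fold. E2f8, a repressing E2F of replication without division, had 269 reads in whole blastocysts and 2 in ICMs, 113-fold lower (31.1 to 940). E2f7, the gene most like it, had 43 and 40 reads (RPKM 0.352 and 0.388). Rbl2, which encodes p130, was 3.47-fold lower (2.60 to 4.71) and Rbl1, p107, 4.46-fold (2.87 to 7.21). Rb1 itself had 48 and 7 reads. The activator E2f1 had 7.66 and 5.37 (0.701, 0.600 to 0.818). Other E2F genes varied. E2f2, under an RPKM of 1 in each library (137 and 9 reads), was 12.8-fold lower (6.56 to 28.6). E2f3 (199 and 31 reads) was 5.41-fold lower (3.69 to 8.17). E2f4, E2f5 and E2f6 had ratios of 0.530, 1.05 and 0.620. The 3 genes past 2-fold lower as deposited were E2f8, Rbl2 and Tfdp1, the last 3.56-fold lower (2.88 to 4.44). Gm7390 matches 48.9% of the longest Tfdp1 transcript, so the reads of Tfdp1 are uncertain.

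The one tested regulator past 2-fold higher was Mybl2, which encodes B-MYB, a transcription factor of mitotic genes that is abundant in stem cells. It had 2.53 in whole blastocysts (173 reads) and 13.3 in ICMs (769 reads), a ratio of 5.28 (4.47 to 6.26). It stayed past 2-fold higher under each of the 5 scalings. Subunits of the MuvB core that B-MYB joins were on the other side. Lin54 had a ratio of 0.0556 (0.0382 to 0.0784). Lin52 was 27.0-fold lower (10.3 to 100.5, 4 ICM reads), Lin37 6.03-fold (3.36 to 11.7, 13 ICM reads) and Lin9 2.36-fold (1.94 to 2.90). Other genes match 54.2% of the longest Lin37 transcript and 28.3% of that of Mybl2, so their reads are uncertain. Foxm1, another activator of mitotic genes, had 4.69 and 2.25.

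Of 7 ubiquitin ligase parts that destroy cyclins and inhibitors, 4 were past 2-fold lower as deposited, beside 44.0% of all genes, and none after centring on the RPKM + 1 scale. That scale understates low genes, and Fzr1 (84 and 16 reads), another activator of the anaphase-promoting complex, was 4.42-fold lower by its RPKM ratio (2.57 to 8.09), 2.80-fold relative to the shift, and past 2-fold lower with TPM (-1.08). Cdc20, which activates the anaphase-promoting complex, had 26.7 and 12.7 (2.09-fold lower, 1.68 to 2.62), and the inhibitor of that complex, Fbxo5, had 11.4 and 4.33 (2.64-fold, 2.12 to 3.31). Skp2, which targets p27, had 4.91 and 3.64.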

How the data were processed

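RNA of 1 whole-blastocyst and 1 ICM library was, per the labels' protocols, extracted (PicoPure), amplified (NuGEN Ovation) and sequenced as SOLiD fragments. The authors deposited whole-number read counts and RPKM values per gene, on build mm9 according to what the submitters' processing notes list. The sources used here do not give the aligner, the annotation, the handling of reads with several matches or the use of strand, and no mm9 coordinates were used. The RPKM worth of a read differed between libraries by the same factor for every gene, so ratios do not depend on gene length. That factor puts the ICM total behind the deposited RPKM at 0.842 of the whole-blastocyst total, compared with 0.445 for the summed counts.

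Intervals are exact conditional (Clopper-Pearson) 95% intervals of the 2 read counts, and those of ratios between genes are exact conditional odds ratios (scipy 1.17.1). Amplified reads without molecular identifiers are not independent molecules, so intervals and the floor of 3 reads cover counting error only. The interval code was tested on simulated Poisson counts. Transcript copies were searched with BLAST+ 2.17.0 in GENCODE M21 (95% identity or more over at least 100 bases). Upstream windows are RefSeq's, matched by current symbol. All members and all listed regulators could be named. The members, lists, motifs and pairs were chosen with earlier results of these data known. The GENCODE-length levels were added after the data were seen. Alternatives varied the pseudocount, filter, scaling, read depth and member set.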

Additional observations from a re-analysis of the deposited data

How the results depend on the processing

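No paired analysis was possible because each group has 1 library, and for the same reason no replicate could be left out. The scaling between the libraries decided the balance of the counts. Tested members numbered 29 as deposited, 29 centred, 35 with TPM, 32 scaled to listed reads and 31 with quantile normalization. In that order, members past 2-fold lower numbered 12, 6, 9, 7 and 6, and members past 2-fold higher 0, 5, 14, 7 and 7. Among all genes the shares lower were 44.0%, 20.5%, 31.4%, 24.6% and 21.1%, and those higher 8.96%, 16.9%, 24.7%, 20.3% and 20.6%. With TPM, 14 of 35 tested members were higher, a larger share than the 24.7% of all genes. The members' median was 0.18 centred, 0.58 with TPM, 0.34 with listed reads and 0.46 with quantile normalization. It was -0.54 with a pseudocount of 0.1 (1 member higher, Cdk2ap2, and Ccne2 also lower) and -0.26 with 5 (7 lower). It was -0.14 without a filter, -0.74 at an RPKM of 5 or more, -0.61 at 50 or more reads and -1.02 without the associated proteins. Tested regulators numbered 50 with TPM, 44 with quantile normalization and 45 under the other scalings and pseudocounts. Regulators past 2-fold lower numbered 17 as deposited, 9 centred, 10 with listed reads, 8 with quantile normalization, 10 with a pseudocount of 5, 17 with TPM and 22 with a pseudocount of 0.1, and those higher 1, 3, 4 and 3 under the first 4 and 5 with TPM. Their median was -0.15 centred, -0.036 with TPM, -0.013 with listed reads, -0.027 with quantile normalization, -0.93 and -0.37 with pseudocounts of 0.1 and 5, -0.66 without a filter, -0.88 at an RPKM of 5 or more and -0.85 at 50 or more reads. No member past 2-fold changed its direction under any alternative. Depth limits the low members: 14 of the 41 had under 50 reads in both libraries, and 3 of these were tested.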

Other observations

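Genes with cyclin- or CDK-like symbols that neither the rule nor the list takes were looked at after the data were seen. Ccndbp1, which encodes a protein that binds D-type cyclins, stood at 49.8 RPKM (1150 reads) in whole blastocysts and 6.01 (117 reads) in ICMs, 8.28-fold lower (6.84 to 10.1). The CDK-like gene Cdkl4 had 87 and 0 reads, in the ICM at least 19.5-fold lower by the exact limit and 24.4-fold at a floor of 3 reads. Cdkl2 had 245 and 134 reads (ratio 0.649, 0.522 to 0.805). Ccnyl1, the relative of Ccny, had 423 and 180 reads, 1.98-fold lower (1.66 to 2.37). Cdkl1, Cdkl3 and Ccnjl had no read in either library.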
